A study of Homo sapiens with 12 samples.

Results

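The RAB genes encode the largest family of small GTPases, and 60 of them were among the 18417 genes measured on 12 microarrays of Calu-3 cells. The members are all genes whose symbol is RAB followed by a number and at most 1 letter, each read by the probe set that carried only that symbol and had the highest mean over the 12 arrays. The rule reads symbols and mean levels and no difference between groups, though the family was taken up with earlier results of these data known. By annotation 59 members are protein coding and RAB1C is a pseudogene. RAB34, RAB4B, RAB6C and RAB6D were matched only by probe sets that also carry other symbols, so they are not among the 60.

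Calu-3 is an established human airway epithelial cell line. Its cells had been transfected with 1 of 3 synthetic RNAs: NC1, a scrambled control (6 arrays, replicates 1 to 6), a small interfering RNA against SIN3A (3 arrays), or a mimic of the microRNA miR-138 (3 arrays). All groups went through the same lipid transfection, so no array shows untransfected cells, and the sources used here give neither doses nor the time to harvest. The labels name Calu-3 and airway epithelial cells, while the extraction note speaks of primary cultures. The series title ties microRNAs to the expression and biosynthesis of CFTR, the chloride channel of airway epithelium. SIN3A holds together a repressor complex with histone deacetylase activity.

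A RAB protein cycles between a GTP-bound form, which sits on a membrane and recruits effectors such as tethers and motors, and a GDP-bound form, which GDI carries through the cytosol. Guanine nucleotide exchange factors (GEFs) load GTP and GTPase-activating proteins (GAPs) end the active state. Each RAB marks its own compartments, and in epithelial cells RABs of early, recycling and late endosomes steer internalised CFTR back to the surface or on to lysosomes.

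The sequences below show the reagent's natural counterpart and the start regions of the 4 genes on which the results turn. The seed, bases 2 to 8 of a mature microRNA, is in capitals. RefSeq lists the same miR-138-5p for MIR138-1 (GRCh38.p14, chr3:44114234-44114256, plus strand) and MIR138-2 (chr16:56858527-56858549, plus strand). The other arm differs between the loci, and the labels do not say which arm the mimic carries.
hsa-miR-138-5p: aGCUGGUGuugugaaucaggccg
hsa-miR-138-1-3p: gCUACUUCacaacaccagggcc
hsa-miR-138-2-3p: gCUAUUUCacgacaccaggguu

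RefSeq promoter windows, from 250 bases before to 50 bases after the annotated start in GRCh38.p14, are given for the 3 RAB genes called against all NC1 arrays (RAB5B, RAB27B and RAB9A) and for RAB4A, which was called between the treatments and against NC1 4 to 6. All lie on the plus strand, and other members called in some comparison are not shown. Capitals mark the E-box CACGTG, a motif bound by MYC and MAX family factors, and the GC box in either orientation (GGGCGG or CCGCCC), a motif bound by SP1 family factors. These are RAB5B (chr12:55973699-55973998), RAB27B (chr18:54717607-54717906), RAB9A (chrX:13688878-13689177) and RAB4A (chr1:229270861-229271160).
RAB5B: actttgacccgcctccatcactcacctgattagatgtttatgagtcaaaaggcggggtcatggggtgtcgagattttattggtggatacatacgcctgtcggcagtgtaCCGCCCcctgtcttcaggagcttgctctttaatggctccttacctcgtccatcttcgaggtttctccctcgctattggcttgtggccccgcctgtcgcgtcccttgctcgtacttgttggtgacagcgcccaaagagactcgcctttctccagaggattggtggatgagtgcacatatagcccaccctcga
RAB27B: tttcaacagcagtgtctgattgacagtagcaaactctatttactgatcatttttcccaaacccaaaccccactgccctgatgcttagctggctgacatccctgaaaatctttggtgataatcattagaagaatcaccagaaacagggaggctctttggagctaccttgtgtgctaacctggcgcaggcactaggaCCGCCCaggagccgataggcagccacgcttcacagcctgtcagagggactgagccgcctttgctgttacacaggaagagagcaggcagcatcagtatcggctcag
RAB9A: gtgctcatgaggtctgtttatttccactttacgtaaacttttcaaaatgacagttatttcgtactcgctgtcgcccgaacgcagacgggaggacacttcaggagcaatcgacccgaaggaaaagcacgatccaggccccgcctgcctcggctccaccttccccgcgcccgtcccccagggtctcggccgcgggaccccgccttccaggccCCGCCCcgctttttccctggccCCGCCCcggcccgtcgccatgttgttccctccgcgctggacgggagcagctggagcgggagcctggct
RAB4A: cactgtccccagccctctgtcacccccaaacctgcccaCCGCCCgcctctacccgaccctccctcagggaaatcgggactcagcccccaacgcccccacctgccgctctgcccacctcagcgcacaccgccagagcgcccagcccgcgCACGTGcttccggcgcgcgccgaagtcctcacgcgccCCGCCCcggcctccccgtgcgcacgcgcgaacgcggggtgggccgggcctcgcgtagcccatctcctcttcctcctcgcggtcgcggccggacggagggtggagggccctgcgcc

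All 4 windows held a GC box, and RAB4A alone of them held an E-box. The RAB27B window had 6 CpG dinucleotides, RAB5B 16, RAB9A 29 and RAB4A 38. Of the 60 members 46 had a RefSeq window of this length, with a median of 27 CpG against 23 over the 14239 measured genes with a window. The GC box lay in 37 of 46 member windows (80.4%) and in 60% of windows of measured genes. The E-box lay in 6 of 46 (13%) against 8.88%. The TATA motif (TATAAA or TTTATA) lay in 2 of 46 (4.35%) against 9%. The 3 motifs share no stretch with each other, both strands were searched, and a match describes letters in the window and no bound site.

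Before the RAB genes, a few facts of the whole series bear on every result. Values are log2 levels, with array medians from 5.09 to 5.16. Any pair of arrays correlated at 0.967 to 0.995 across genes. SIN3A mRNA fell by 0.88 on the log2 scale after SIN3A siRNA (limma adjusted p = 0.0111) and by 0.83 after the miR-138 mimic (adjusted p = 0.0304). NC1 arrays 4 to 6 differed from NC1 arrays 1 to 3: 1850 of 18417 genes (10%) passed an adjusted p under 0.05. Members called against all 6 NC1 arrays are therefore also given against each part. Many other genes below are given against all 6 NC1 arrays only, and their differences can depend on the part. The SIN3A values above are also from all 6 NC1 arrays, and the size of the fall varied with the part. SIN3A read 6.36 to 6.79 on NC1 1 to 3 and 7.11 to 7.34 on NC1 4 to 6. Taken from the first part, the SIN3A change was −0.593 after siRNA and −0.542 after the mimic. Taken from the second part, the changes were larger, −1.176 and −1.125. Of 11 epithelial markers 10 were measured, with EPCAM at a mean log2 level of 10.70. Their mean per array lay between 7.71 and 7.81 with NC1, 7.62 and 7.73 with siRNA, and 7.64 and 7.70 with the mimic. CFTR is on that list and was its 1 gene called lower with siRNA, at 6.50 to 6.69 against 7.46 to 8.27 with NC1 (−1.34, adjusted p = 0.000203). With the mimic CFTR read 7.52 to 7.62 (−0.39, adjusted p = 0.244). That mimic difference depended on the control part. It was called lower against NC1 4 to 6 (−0.567) and not against NC1 1 to 3 (−0.219). Of 7 leukocyte markers 6 were measured, from PTPRC at a mean of 2.93 to LYZ at 8.69. Between them CD3E read 3.887 to 4.236, CD14 4.705 to 5.091, ITGAM 4.731 to 5.226 and CD68 6.43 to 7.21. The mean of the 6 leukocyte markers per array lay between 5.30 and 5.52 with NC1, 5.42 and 5.49 with siRNA, and 5.37 and 5.46 with the mimic. All 6 fibroblast markers were measured, from LUM at 2.54 to COL1A1 at 6.05, with array means from 4.32 to 4.60 with NC1, 4.39 to 4.45 with siRNA and 4.33 to 4.40 with the mimic. All 5 endothelial markers were measured, from TEK at 3.55 to VWF at 4.46. Of 7 neuroendocrine and neuronal markers 5 were measured, from CHGB at 3.83 to ENO2 at 5.18. The part of other cell types in the results was not tested. The sample titles call the replicates biological.

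SIN3A siRNA raised RAB5B and lowered RAB27B, and these were the members called against all 6 NC1 arrays. RAB5B is an early endosome RAB that works in the fusion of incoming vesicles with endosomes, and RAB27B is a secretory RAB that docks granules and exosome-bearing endosomes at the plasma membrane. A member was called where the limma p, adjusted by Benjamini-Hochberg for 18417 genes, was under 0.05. By that rule 2 of 60 members (3.33%) were called, against 4.01% of all genes, so the family's share was close to the background (2.35% of genes were higher and 1.66% lower). For 6 members every siRNA array was above the NC1 range and for 2 every one was below it, against 5.49% and 3.53% of all genes. The median log2 difference over the members was 0.07, with 37 positive and 23 negative, and over all genes it was −0.005. On these bulk arrays fewer cells that express a gene and less of its RNA per cell cannot be told apart.

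The log2 level of RAB5B was 6.85, 7.02 and 6.81 on the 3 siRNA arrays. It was 6.54, 6.49 and 6.46 on NC1 arrays 1 to 3 and 6.51, 6.24 and 6.34 on NC1 arrays 4 to 6. Every siRNA array lay above every NC1 array. The difference was 0.46 (SE 0.09), or 1.38-fold, with an adjusted p of 0.0111 and an exact permutation p of 0.0119 (two-sided), the smallest that 84 splits of 3 against 6 arrays allow. It was 0.40 against NC1 1 to 3 (limma adjusted p = 0.0261) and 0.53 against NC1 4 to 6 (adjusted p = 0.00172). Without siRNA array 2 it was 0.40 with an adjusted p of 0.0756, and the call against all NC1 arrays was lost. With the mimic RAB5B read 6.42, 6.35 and 6.59, with arrays 1 and 2 inside the NC1 range and array 3 just above it, a difference of 0.02 (adjusted p = 0.969).

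RAB27B read 5.98, 6.19 and 6.26 on the siRNA arrays. The NC1 arrays read 7.01, 6.89 and 6.68 for replicates 1 to 3 and 6.70, 6.44 and 6.41 for replicates 4 to 6. All siRNA arrays lay below all NC1 arrays, and the NC1 parts themselves stood apart by −0.34 (limma adjusted p = 0.0669). The log2 difference from all NC1 arrays was −0.54 (SE 0.12, adjusted p = 0.0241, exact permutation p = 0.0119), which is 68.6% of the control level. Its size depended on the control part, with −0.71 against NC1 1 to 3 (adjusted p = 0.00154) and −0.37 against NC1 4 to 6 (adjusted p = 0.0399). The limma call rested on all 3 siRNA arrays: without siRNA array 1 the difference was −0.46 (adjusted p = 0.131), without array 2 −0.57 (adjusted p = 0.084) and without array 3 −0.60 (adjusted p = 0.0705). The mimic arrays read 6.48, 6.50 and 6.64, and their difference from NC1 was −0.15 (adjusted p = 0.739).

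RAB5B and RAB27B were also the only members called in the same direction against both NC1 parts after siRNA. Over all genes 1.5% were called higher against both parts and 0.972% lower against both. Against NC1 1 to 3 alone 5 of 60 members were called (background 5.7%), 4 higher (3.66%) and 1 lower (2.04%). Against NC1 4 to 6 alone 6 of 60 were called (background 11.4%), 3 higher (5.16%) and 3 lower (6.28%). The 2 comparisons share the siRNA arrays. RAB14, RAB21 and RAB22A were called higher only against the first part. RAB24 and RAB30 were called higher, and RAB13 and RAB8B lower, only against the second part. With each of the 12 arrays left out in turn, the calls of RAB14, RAB21 and RAB22A held in all 12 fits, RAB24 in 10, RAB30 in 8, RAB13 in 4 and RAB8B in 3. RAB5B held in 8 fits against NC1 1 to 3 and in 12 against NC1 4 to 6, and RAB27B in 12 and 6.

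**Figure D1:**
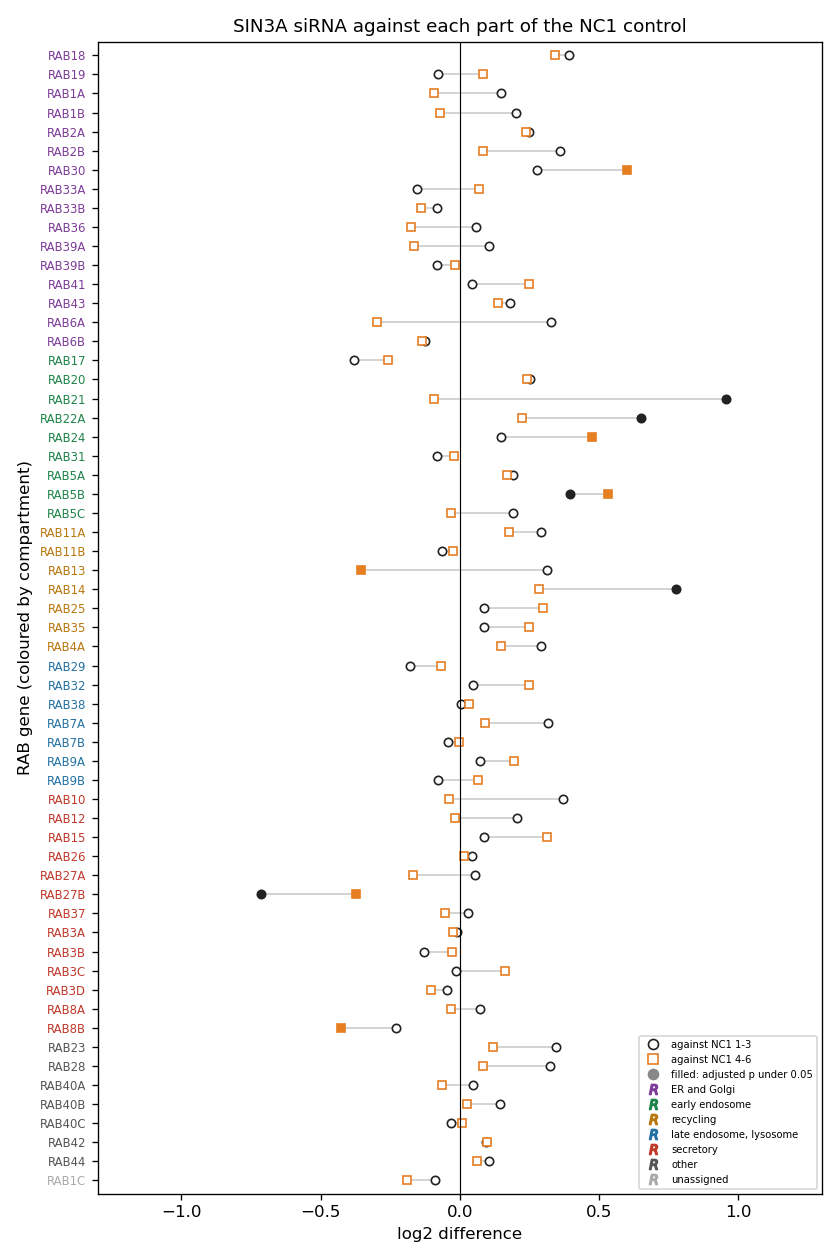
Log2 difference of SIN3A siRNA from NC1 arrays 1 to 3 (circles) and from NC1 arrays 4 to 6 (squares) on the horizontal axis, for each of 60 RAB genes in rows grouped by compartment. Filled symbols passed a limma adjusted p under 0.05, and RAB5B (0.40 and 0.53) and RAB27B (−0.71 and −0.37) have both symbols filled on the same side of 0, while RAB13 (0.31 and −0.35) changes side.

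The miR-138 mimic raised RAB9A, and no other member was called against all NC1 arrays. RAB9A acts at late endosomes in the return of mannose 6-phosphate receptors to the trans-Golgi network. The call was 1 of 60 members (1.67%), against 1.04% of all genes (0.641% higher and 0.402% lower). The mimic arrays lay above all NC1 arrays for 2 members and below them for 2, against 3.89% and 2.54% of all genes. The median log2 difference over the members was 0.022 with 32 positive and 28 negative, and over all genes it was −0.015. This comparison shares its NC1 arrays with that of the siRNA.

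RAB9A read 6.57, 6.62 and 6.64 on the mimic arrays. On NC1 arrays 1 to 3 it read 6.28, 6.22 and 6.29, and on NC1 arrays 4 to 6 it read 6.09, 6.31 and 6.02. Every mimic array lay above every NC1 array and above every siRNA array, which read 6.33, 6.51 and 6.17. The log2 difference from NC1 was 0.40 (SE 0.09), or 1.32-fold, with a limma adjusted p of 0.0493 and an exact permutation p of 0.0119. It was 0.34 against NC1 1 to 3 (adjusted p = 0.0466) and 0.47 against NC1 4 to 6 (adjusted p = 0.0138), called in both. Over all genes 0.619% were called higher against both parts. The call lay close to the threshold. With 1 array left out at a time the difference stayed between 0.367 and 0.425. The call held without NC1 array 3 or NC1 array 5 and was lost without any other array, with an adjusted p from 0.0504 (without siRNA array 2) to 0.238 (without mimic array 3). It was also lost under a second quantile normalization (0.37, adjusted p = 0.072) and with a variance trend (adjusted p = 0.058). With siRNA the RAB9A difference from NC1 was 0.13 (adjusted p = 0.537).

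RAB4A, the RAB of rapid recycling from early endosomes, had the lowest mimic arrays of all groups without being called against all NC1 arrays. It read 5.05, 5.05 and 5.18 with the mimic, 5.37, 5.30 and 5.37 on NC1 arrays 1 to 3, and 5.55, 5.58 and 5.33 on NC1 arrays 4 to 6. The mimic arrays did not overlap the NC1 arrays, and the log2 difference was −0.32 (SE 0.09), with a limma adjusted p of 0.104 and an exact permutation p of 0.0119. Against NC1 4 to 6 it was −0.39 (adjusted p = 0.0252) and against NC1 1 to 3 it was −0.25 (adjusted p = 0.123). Without mimic array 1 the difference from NC1 4 to 6 was −0.37 (adjusted p = 0.116), and without NC1 array 5 it was −0.35 (adjusted p = 0.137). It was also not called without mimic array 2 (adjusted p = 0.112) or NC1 array 4 (adjusted p = 0.115). The siRNA arrays read 5.52, 5.68 and 5.71, a difference from NC1 of 0.22 (adjusted p = 0.208).

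Against NC1 1 to 3 alone, 9 of 60 members (15%) were called higher with the mimic and none lower, against 6.01% of all genes higher, 2.54% lower and 8.55% in either direction. These were RAB10, RAB13, RAB14, RAB1A, RAB21, RAB22A, RAB2B, RAB6A and RAB9A. Against NC1 4 to 6 alone, 2 of 60 were called (background 3.49%), RAB9A higher (1.59%) and RAB4A lower (1.89%). Of the 9 members, 5 also differed between the NC1 parts themselves: RAB10, RAB13, RAB21, RAB22A and RAB6A. With 1 array left out at a time, RAB21, RAB22A, RAB2B and RAB6A kept the call against NC1 1 to 3 in 12 of 12 fits, RAB10 and RAB14 in 11, RAB13 in 9, RAB1A in 7 and RAB9A in 4. Against NC1 4 to 6, RAB9A and RAB4A kept it in 8 each. The comparisons with each part and between the parts share arrays.

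**Figure D2:**
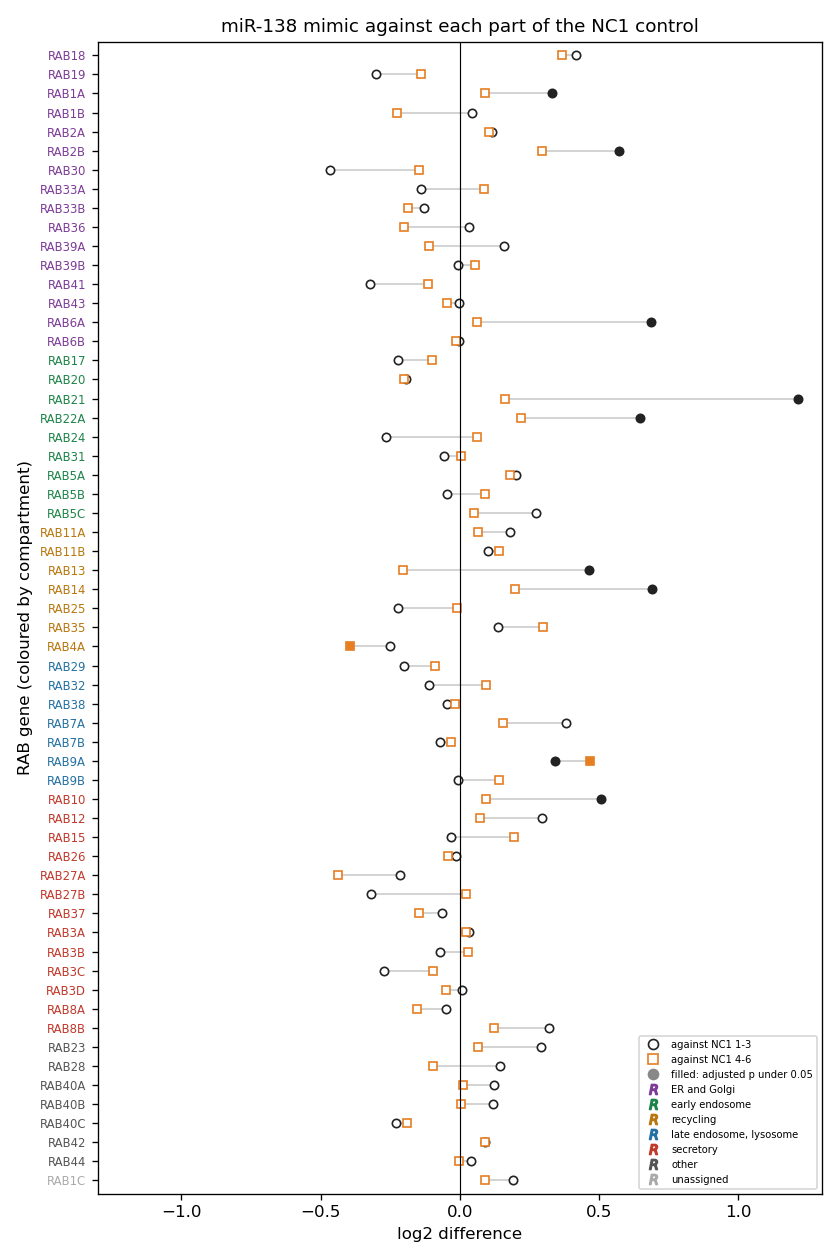
Log2 difference of the miR-138 mimic from NC1 arrays 1 to 3 (circles) and from NC1 arrays 4 to 6 (squares) on the horizontal axis, for each of 60 RAB genes in rows grouped by compartment. Filled symbols passed a limma adjusted p under 0.05: RAB9A (0.34 and 0.47) has both filled, and 8 other members have only the circle filled, RAB21 with 1.21 against 0.16.

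Set side by side, the treated groups differed in 3 of 60 members (5%), all lower with the mimic than with siRNA, against 1.57% of all genes in either direction and 0.89% lower. They were RAB4A, RAB20 and RAB5B, of early and recycling endosomes. The median over the members was −0.012 (11 of 60 members had an unadjusted p under 0.05, against 13.6% of all genes), and over all genes it was −0.007. Arrays did not overlap for 9 members above and 13 below, against 13.3% and 13.1% of all genes.

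The RAB4A difference, mimic minus siRNA, was −0.54 (SE 0.10, limma adjusted p = 0.0169), 68.8% of the siRNA level, with no overlap of 3 against 3 arrays, where an exact permutation p cannot go below 0.1. The call was lost without siRNA array 2 (−0.52, adjusted p = 0.0728) or 3 (−0.50, adjusted p = 0.0889) and without mimic array 1 (−0.52, adjusted p = 0.0836) or 2 (−0.52, adjusted p = 0.0861). The change from the NC1 part listed with each treatment also differed: the RAB4A effect of the mimic against NC1 4 to 6 minus that of siRNA against NC1 1 to 3 was −0.68 (limma adjusted p = 0.0113). This pairing of treatments with NC1 parts is inferred from the order of the samples and the values, and the labels do not state it.

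RAB20 acts on endosomes and maturing phagosomes. It read 5.44, 5.43 and 5.57 with siRNA and 4.88, 4.99 and 5.23 with the mimic, while the 6 NC1 arrays lay between 5.18 and 5.32. All siRNA arrays lay above all NC1 arrays by 0.25 in the mean (SE 0.08), with a limma adjusted p of 0.127 and an exact permutation p of 0.0119. The mimic arrays overlapped the controls (−0.20, adjusted p = 0.364). The mimic and siRNA differed by −0.44 (SE 0.10, adjusted p = 0.0326). The RAB20 call was lost without any 1 siRNA array (adjusted p = 0.0856, 0.0934 and 0.141 for arrays 1, 2 and 3) and without mimic array 1 (adjusted p = 0.149) or 2 (adjusted p = 0.132). The difference of the treatment effects, each from its own NC1 part, was −0.45 (adjusted p = 0.117).

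For RAB5B the mimic minus siRNA difference was −0.44 (SE 0.10, limma adjusted p = 0.0455). All 3 siRNA arrays and mimic array 3 lay above the NC1 range. This call was lost without any 1 siRNA or mimic array (adjusted p from 0.0739 to 0.19), without NC1 array 2, 4 or 6 (adjusted p from 0.0507 to 0.0522) and with a variance trend in the fit (adjusted p = 0.054). With each treatment set against its own NC1 part the difference was −0.31 (adjusted p = 0.357), so that the test of the difference of effects did not pass.

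RAB27B passed that second test. It was higher with the mimic than with siRNA by 0.39 (SE 0.14, limma adjusted p = 0.207), and the difference of effects from the respective NC1 parts was 0.74 (adjusted p = 0.0224). The latter includes the difference between the NC1 parts, which was −0.34 for RAB27B (NC1 4 to 6 minus NC1 1 to 3). RAB27B and RAB4A were the 2 members (3.33%) that passed, against 2.09% of all genes.

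The ends of the order belonged to members that missed the threshold. RAB30, a Golgi RAB with a mean level in the lowest 12.5% of genes, read 4.73, 4.15 and 3.85 with siRNA and 3.63, 3.46 and 3.41 with the mimic. The RAB30 difference was −0.75 (SE 0.19, limma adjusted p = 0.067). RAB8B, which acts in transport from the Golgi to the plasma membrane, read 5.98, 6.10 and 6.18 with siRNA and 6.63, 6.73 and 6.54 with the mimic, a difference of 0.55 (SE 0.14, adjusted p = 0.0726).

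**Figure D3:**
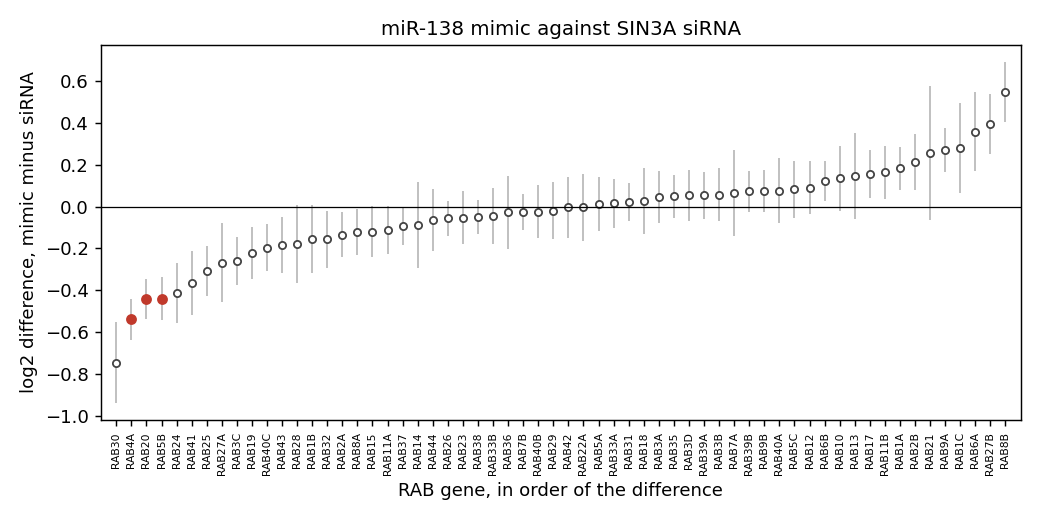
Log2 difference of the miR-138 mimic minus SIN3A siRNA on the vertical axis for 60 RAB genes in order of the difference, with bars of 1 SE from the limma fit. Red points passed an adjusted p under 0.05 (RAB4A, RAB20 and RAB5B, all below 0), and the ends of the order are RAB30 at −0.75 and RAB8B at 0.55.

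**Figure D4:**
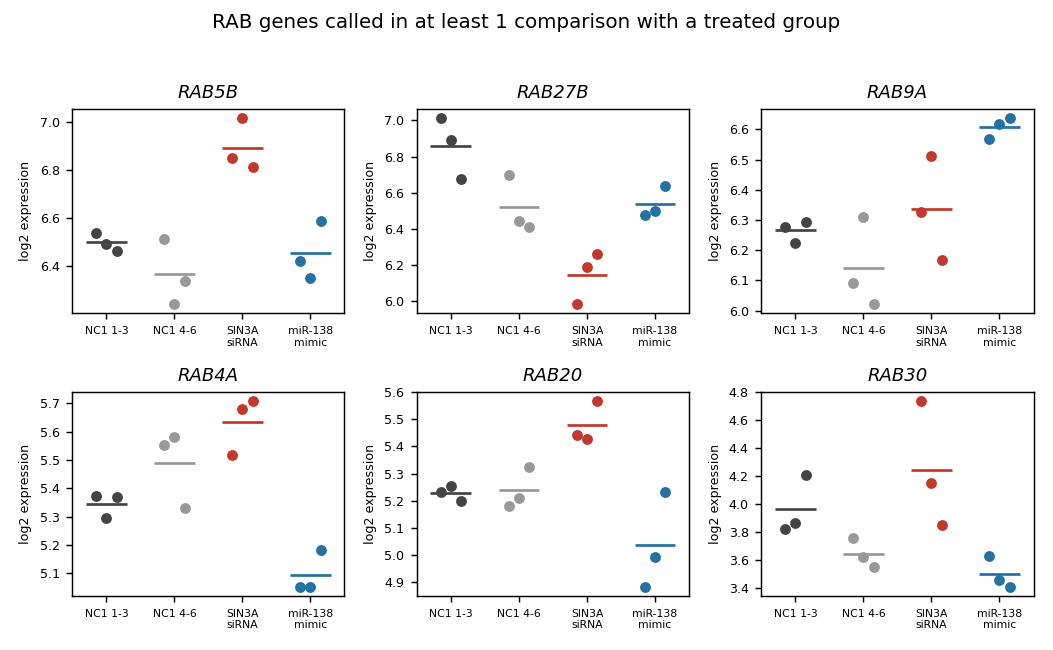
Log2 level on each array (points) and group mean (lines) for 6 RAB genes called in at least 1 comparison with a treated group, in NC1 arrays 1 to 3, NC1 arrays 4 to 6, SIN3A siRNA and miR-138 mimic, with 3 arrays each. The siRNA arrays of RAB5B (6.81 to 7.02) and the mimic arrays of RAB9A (6.57 to 6.64) lie above all NC1 arrays, and the siRNA arrays of RAB27B (5.98 to 6.26) and the mimic arrays of RAB4A (5.05 to 5.18) lie below them.

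RAB levels also differed between the parts of the control. NC1 4 to 6 were higher than NC1 1 to 3 in 5 of 60 members (8.33%) and lower in none, against 6.86% of all genes higher and 3.18% lower. The parts did not overlap for 8 members above and 2 below, against 12% and 10.4% of all genes. Over the members the median was 0.04 with 36 positive and 24 negative, and over all genes it was −0.02. These differences are the background against which every comparison with 1 part of NC1 stands.

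RAB21, an early endosome RAB that carries integrins, read 6.39, 6.11 and 5.66 on NC1 arrays 1 to 3. It read 6.98, 7.43 and 6.91 on NC1 arrays 4 to 6, 6.88, 7.20 and 6.96 with siRNA, and 7.25, 7.33 and 7.23 with the mimic. NC1 1 to 3 stood alone below the other 9 arrays. The RAB21 difference between the control parts was 1.05 (SE 0.16, limma adjusted p = 0.000458), or 2.07-fold. Set against NC1 1 to 3, the siRNA difference was 0.96 and the mimic difference 1.21. Set against NC1 4 to 6, they were −0.09 and 0.16. Against all NC1 arrays the mimic difference was 0.69 (adjusted p = 0.34), the highest of any member.

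RAB13, which acts in the delivery of tight junction proteins, read 6.995, 6.98 and 6.63 on NC1 arrays 1 to 3 and 7.65, 7.54 and 7.42 on NC1 arrays 4 to 6. Its difference was 0.67 (limma adjusted p = 0.00075). Both treated groups lay in between, with 7.21, 7.26 and 7.08 for siRNA and 7.40, 7.22 and 7.38 for the mimic. A second RAB13 probe set gave 0.48 for the control parts, with an adjusted p of 0.0118 over all 33297 probe sets. It did not pass in the 2 treatment comparisons where RAB13 was called. There it gave −0.32 for siRNA against NC1 4 to 6 (limma adjusted p = 0.0738) and 0.35 for the mimic against NC1 1 to 3 (adjusted p = 0.0652).

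RAB6A, the RAB of retrograde Golgi traffic, differed by 0.63 between the control parts (limma adjusted p = 0.000522). It read 7.50, 7.31 and 7.27 on NC1 arrays 1 to 3 and 8.07, 7.91 and 7.98 on NC1 arrays 4 to 6, without overlap. The siRNA arrays (7.74, 7.75 and 7.57) again lay between, and the mimic arrays (7.92, 8.15 and 8.07) lay with NC1 4 to 6. Probe sets that carry RAB6A together with RAB6C and RAB6D gave smaller control differences that did not pass. These were 0.31 (limma adjusted p = 0.137) and 0.17 (adjusted p = 0.288). The control differences of RAB21, RAB13 and RAB6A were called in all 12 fits that leave out 1 array.

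RAB22A, an endosome RAB close to the RAB5 group, differed by 0.43 between the control parts (limma adjusted p = 0.026). RAB10, which acts in basolateral and exocytic traffic, differed by 0.41 (adjusted p = 0.0321). Both calls were lost without NC1 array 3, at 0.26 for RAB22A (adjusted p = 0.0765) and 0.27 for RAB10 (adjusted p = 0.124). They were also lost without NC1 array 4 (adjusted p = 0.072 and 0.163) or NC1 array 5 (adjusted p = 0.0985 and 0.098). A second quantile normalization also ended the RAB22A call (0.30, adjusted p = 0.0646). RAB22A read 8.21, 8.22 and 8.29 with siRNA and 8.28, 8.24 and 8.20 with the mimic. All 6 treated arrays lay above all NC1 arrays, whose range was 7.25 to 8.05. The RAB22A difference from all NC1 arrays was 0.44 with siRNA (adjusted p = 0.107) and 0.43 with the mimic (adjusted p = 0.193).

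RAB14, which moves cargo between the Golgi and endosomes, had a similar layout. The siRNA arrays read 7.39, 7.29 and 7.52, all above the NC1 arrays, which read 6.92, 6.75 and 6.21 for replicates 1 to 3 and 7.26, 7.20 and 6.89 for replicates 4 to 6. The siRNA difference was 0.78 against NC1 1 to 3 (limma adjusted p = 0.00822) and 0.28 against NC1 4 to 6 (adjusted p = 0.319). With the mimic RAB14 read 7.46, 7.12 and 7.36, with differences of 0.69 (adjusted p = 0.0104) and 0.20 (adjusted p = 0.76).

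**Figure D5:**
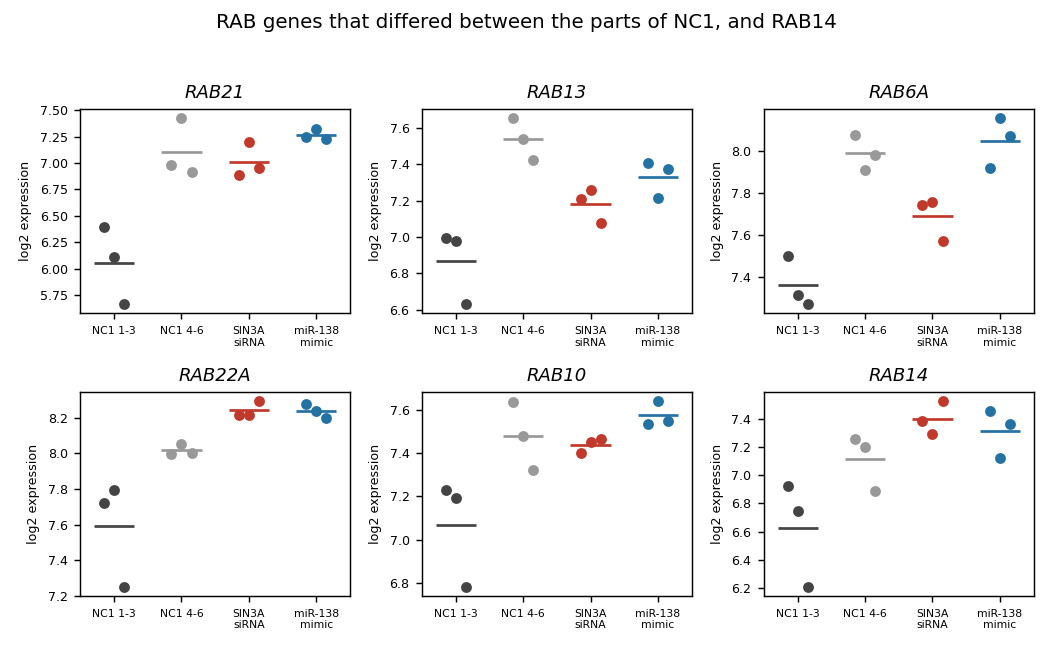
Log2 level on each array (points) and group mean (lines) for the 5 RAB genes that differed between NC1 arrays 1 to 3 and NC1 arrays 4 to 6, and for RAB14, in both NC1 parts, SIN3A siRNA and miR-138 mimic. For RAB21 the NC1 arrays 1 to 3 (5.66 to 6.39) lie below all other arrays, and for RAB13 both treated groups lie between the NC1 parts.

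NC1 array 3 was the lowest of the 12 arrays for 18 of 60 members (30%), and for 15.5% of all genes. Among the 36 members whose mean reached the median of all genes it was lowest for 16, and for 25.2% of genes of that brightness. It was the lowest for RAB7A (8.93 against 9.35 to 9.99 on the other 11 arrays) and RAB11A (8.88 against 9.21 to 9.47). Without NC1 array 3, siRNA against all NC1 arrays gave 4 called members in place of 2, the NC1 parts differed in 6 in place of 5, and the mimic gave 1 as before. The share of all genes called in that fit was not counted, so these shifts are not read as particular to the RAB genes.

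Of the RABs known in CFTR traffic, RAB4A and RAB9A are given above and the other 5 were called in no comparison. RAB5A, of early endosomes, read 8.08, 8.05 and 7.53 on NC1 arrays 1 to 3, 7.94, 7.94 and 7.85 on NC1 arrays 4 to 6, 8.12, 8.20 and 7.92 with siRNA, and 8.05, 8.19 and 8.02 with the mimic. Both treated groups overlapped the 6 NC1 arrays, while the mimic arrays lay above NC1 4 to 6. The RAB5A differences from NC1 were 0.18 with siRNA (limma adjusted p = 0.485) and 0.19 with the mimic (adjusted p = 0.578). RAB7A, which takes cargo to lysosomes, read 9.88, 9.71 and 8.93, then 9.96, 9.88 and 9.35 in the NC1 parts, 9.83, 9.82 and 9.80 with siRNA and 9.76, 9.91 and 9.99 with the mimic. The differences for RAB7A were 0.20 (adjusted p = 0.662) and 0.27 (adjusted p = 0.651), and a second RAB7A probe set gave 0.02 and 0.04. Without NC1 array 3 they were 0.065 and 0.13.

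RAB11A, of the recycling endosome, read 9.36, 9.26 and 8.88, then 9.33, 9.31 and 9.21 in the NC1 parts, and 9.44, 9.46 and 9.47 with siRNA, above all NC1 arrays. That RAB11A difference was 0.23 (SE 0.10, limma adjusted p = 0.253), and with the mimic (9.23, 9.40 and 9.42) it was 0.12 (adjusted p = 0.732). RAB11B, its close relative, read 5.63, 5.71 and 6.05, then 5.77, 5.72 and 5.78 in the NC1 parts, 5.80, 5.87 and 5.53 with siRNA, and 6.07, 5.68 and 5.94 with the mimic. The RAB11B differences were −0.04 (adjusted p = 0.907) and 0.12 (adjusted p = 0.774). The siRNA sign of RAB11B turned to 0.010 without NC1 array 3 and to 0.055 without siRNA array 3.

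RAB27A, a secretory RAB related to RAB27B, spread widely within groups. It read 6.305, 5.545 and 5.495 on NC1 arrays 1 to 3, 5.90, 6.26 and 5.86 on NC1 arrays 4 to 6, 6.00, 5.72 and 5.79 with siRNA, and 5.46, 5.53 and 5.72 with the mimic. The RAB27A differences were −0.06 with siRNA (SE 0.16, limma adjusted p = 0.92) and −0.33 with the mimic (adjusted p = 0.478). The siRNA value turned to 0.02 without NC1 array 1 (adjusted p = 0.968) and to 0.015 without NC1 array 5, so its direction with siRNA was not settled. The mimic value stayed negative with each array left out, from −0.406 to −0.244.

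By compartment, the counts below are of members called against all NC1 arrays, to be read against 4.01% of all genes for siRNA and 1.04% for the mimic. An unadjusted p under 0.05 was reached by 16.4% of all genes with siRNA and 11.3% with the mimic. Of 9 early endosome RABs 1 was called higher with siRNA (RAB5B), the siRNA median was 0.245 with 7 of 9 positive, and 5 had an unadjusted p under 0.05. RAB17, which sorts cargo in polarised epithelial cells, lay below all NC1 arrays with siRNA, at 5.455, 5.056 and 5.161 against 5.462 to 5.752. The RAB17 difference was −0.32 (SE 0.10), with a limma adjusted p of 0.0917 and an exact permutation p of 0.0119. RAB24, a RAB tied to autophagy, was 0.31 higher with siRNA against all NC1 arrays (adjusted p = 0.221) and 0.47 higher against NC1 4 to 6 (adjusted p = 0.0133). With the mimic no early endosome RAB was called and the median was 0.02.

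None of 16 RABs of the endoplasmic reticulum and Golgi was called in either treatment against all NC1 arrays by limma, and 3 with siRNA and 4 with the mimic had an unadjusted p under 0.05 (16.4% and 11.3% of all genes). Their differences ran from −0.13 to 0.44 with siRNA and from −0.31 to 0.43 with the mimic. The smallest adjusted p among them was that of RAB2B with the mimic. RAB2B, which acts between the endoplasmic reticulum and the Golgi, read 7.17, 7.35 and 7.02 with the mimic against 6.48 to 7.06 with NC1, a difference of 0.43 (SE 0.12, adjusted p = 0.104). RAB18, of lipid droplets and the endoplasmic reticulum, differed by 0.37 with siRNA (adjusted p = 0.18) and 0.39 with the mimic (adjusted p = 0.244). RAB2A differed by 0.24 with siRNA (adjusted p = 0.191), with its arrays (7.19, 7.41 and 7.23) above all NC1 arrays. RAB1A, which acts in transport from the endoplasmic reticulum to the Golgi, differed by 0.33 from NC1 1 to 3 with the mimic (adjusted p = 0.0221) and by 0.21 from all NC1 arrays (adjusted p = 0.375).

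Among 7 recycling RABs limma called none against all NC1 arrays, and 3 had an unadjusted p under 0.05 in each treatment (16.4% and 11.3% of all genes). Their median was 0.19 with siRNA and 0.12 with the mimic. RAB25, an epithelial relative of RAB11A, differed by 0.19 with siRNA (adjusted p = 0.39) and −0.12 with the mimic (adjusted p = 0.759). RAB35 differed by 0.17 (adjusted p = 0.38) and 0.22 (adjusted p = 0.343). Among 7 RABs of late endosomes and lysosomes RAB9A was the 1 call, with the mimic, and the other 6 members had mimic differences no higher than 0.27 (RAB7A) and no lower than −0.14 (RAB29).

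Of 13 secretory RABs 1 was called, RAB27B with siRNA, and the median was −0.01 with siRNA and −0.02 with the mimic. RAB8B differed by −0.33 with siRNA (limma adjusted p = 0.188) and 0.22 with the mimic (adjusted p = 0.551). The 4 RAB3 genes, known from regulated exocytosis in neurons and glands, had siRNA differences from −0.08 (RAB3B) to 0.08 (RAB3C) and mimic differences from −0.18 (RAB3C) to 0.03 (RAB3A). None of the remaining 7 assigned members was called by limma in either treatment, with 0 and 1 at an unadjusted p under 0.05 (16.4% and 11.3% of all genes). RAB23, which acts in Hedgehog signalling, had the largest siRNA difference of these, 0.23 (adjusted p = 0.314), and the pseudogene RAB1C had −0.14 (adjusted p = 0.793).

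The regulators of the RAB cycle were read from lists of their genes, against the same backgrounds. Their counts, too, are of genes called against all NC1 arrays unless a part is named. Of 51 GEF genes 3 were called higher with SIN3A siRNA and none lower (5.88%), and limma called none with the mimic, where 7 had an unadjusted p under 0.05 (11.3% of all genes). All 3 encode subunits of the TRAPP complexes, which tether vesicles and activate RAB1. TRAPPC1 read 7.91, 8.02 and 8.30 with siRNA against 7.38 to 7.68 with NC1, a difference of 0.56 (SE 0.10, adjusted p = 0.0092), and 7.63, 7.34 and 7.63 with the mimic (0.01, adjusted p = 0.983). TRAPPC6B read 6.76, 6.82 and 6.96 with siRNA against 5.96 to 6.54 with NC1 (0.60, adjusted p = 0.0105) and 6.74, 6.77 and 6.71 with the mimic (0.50, adjusted p = 0.0546). TRAPPC3 differed by 0.35 with siRNA (adjusted p = 0.0497), but by 0.32 against NC1 1 to 3 (adjusted p = 0.0994).

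Of 37 GAP genes 1 was called higher and 3 lower with siRNA (10.8%), and 1 lower with the mimic (2.7%). RABGAP1L fell, at 6.22, 6.38 and 6.28 with siRNA against 6.70 to 7.08 with NC1 (−0.58, SE 0.10, limma adjusted p = 0.00599). TBC1D5, the GAP of RAB7 that works with retromer, fell as well, at 5.45, 5.62 and 5.42 against 5.66 to 6.48 (−0.69, adjusted p = 0.0149). Both held against each NC1 part, with −0.43 and −0.73 for RABGAP1L and −0.47 and −0.90 for TBC1D5. TBC1D23, a Golgi bridging protein with an inactive GAP domain, was higher with siRNA (0.46, adjusted p = 0.0288), and the mimic value was 0.46 (adjusted p = 0.0605). RAB3GAP1 was lower with siRNA (−0.40, adjusted p = 0.0452), but it was not called against NC1 1 to 3. There RABGAP1L and TBC1D5 were the only 2 GAP genes called lower. With the mimic TBC1D1, a GAP known from glucose transporter traffic, was lower (−0.42, adjusted p = 0.0288), and it held against both parts (−0.41 and −0.43).

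Of 72 effector genes 1 was called higher with siRNA (1.39%), and 2 higher and 1 lower with the mimic (4.17%). EEA1, the early endosome tether that binds RAB5, read 6.31, 6.40 and 6.54 with siRNA against 5.45 to 6.20 with NC1 (0.56, SE 0.14, limma adjusted p = 0.041). It read 6.33, 6.17 and 6.29 with the mimic, a difference of 0.40 (adjusted p = 0.25). KIF20A, a mitotic kinesin first described as a RAB6 binding protein, read 5.93, 6.08 and 6.20 with the mimic against 6.72 to 7.27 with NC1 (−0.96, adjusted p = 0.00159). PIK3C3, the lipid kinase that acts with RAB5 and RAB7, read 7.10, 7.15 and 7.30 with the mimic against 6.39 to 6.79 with NC1 (0.60, adjusted p = 0.00665). VPS33A, a subunit of the HOPS and CORVET tethers, read 6.49, 6.63 and 6.69 against 5.61 to 6.34 (0.62, adjusted p = 0.0303). KIF20A, PIK3C3 and VPS33A were called against each NC1 part too, with −0.84 and −1.08, 0.72 and 0.49, and 0.80 and 0.44. The difference between both treatment effects, each from its own NC1 part, was −1.16 for KIF20A (adjusted p = 0.00111).

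None of 14 genes for GDI, REP, prenylation and YIPF proteins was called by limma in either treatment against all NC1 arrays. There 3 with siRNA and 1 with the mimic had an unadjusted p under 0.05 (16.4% and 11.3% of all genes). Against NC1 1 to 3 and NC1 4 to 6 alone, 1 and 2 were called with siRNA (backgrounds 5.7% and 11.4%). With the mimic 2 and 0 were called (backgrounds 8.55% and 3.49%). The nearest against all NC1 arrays were YIPF6 with siRNA (−0.35, adjusted p = 0.062) and RABGGTB with the mimic (0.46, adjusted p = 0.0914). RABGGTB is a subunit of the enzyme that prenylates RABs. None of 7 RAB-like genes, counted with RAN, was called by limma against all NC1 arrays. There 1 in each treatment had an unadjusted p under 0.05, and the nearest was IFT27 with siRNA (0.35, adjusted p = 0.0545). Against NC1 1 to 3 and NC1 4 to 6 alone, 0 and 2 of the 7 were called with siRNA, and 2 and 0 with the mimic.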

How the data were processed

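RNA was measured on 12 arrays, 6 with NC1, 3 with SIN3A siRNA and 3 with miR-138 mimic, grouped by the sample titles. The deposited values are log2 expression values, 1 per probe set and array, and the tools named for them, per the submitters' processing notes, are RMA and Partek 6.3. They were used as deposited, so background correction, normalization and probe summary stand as given, and no detection calls were used. Of 33297 probe sets 19460 carried 1 gene symbol, 1754 several and 12083 none. The 1-symbol probe set with the highest mean stood for each of 18417 genes, and 3 RAB members had more than 1.

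limma 3.58.1 under R 4.3.3 was fitted to all genes, with 3 group means (9 residual degrees of freedom) for comparisons with all NC1 arrays and between treatments, and 4 means (8 degrees) for the NC1 parts. A call is a Benjamini-Hochberg adjusted p under 0.05 over all genes. SE is from limma. Exact two-sided permutation tests over arrays were added for single members. The fit with 3 group means was tested on simulated data for siRNA against all NC1 arrays, with no difference between the NC1 parts. The other fits and the permutation tests were not tested in this way. Precision is limited by the number of arrays, with a median SE of 0.101 for a difference from NC1.

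Arrays are given one by one for members called against all NC1 arrays, or in 1 direction against both parts, and for RABs of CFTR traffic. Others are given by compartment with the smallest adjusted p. The array values of RAB20, RAB30, RAB8B and of members that differ between NC1 parts were added after their values were seen. The members and lists were chosen with earlier results of these data known.

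Alternatives were a second quantile normalization, all probe sets of a gene averaged, dim genes left out, a variance trend, replicate number or array set as a block, and each array left out. The array sets, NC1 1 to 3 with siRNA and NC1 4 to 6 with mimic, were inferred and are not in the labels.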

Additional observations from a re-analysis of the deposited data

Results flagged for a closer look

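In 7 of 60 members 1 NC1 array stood apart from the other 5 by Dixon's gap test, and chance flags about 1 in 20. RAB11A on NC1 array 3 was 8.884, with the nearest other at 9.208. RAB11B on the same array was 6.052, above 5.784. RAB29 on NC1 array 2 was 5.915, above 5.511. RAB31 on NC1 array 4 was 4.347, below 4.465. RAB38 on NC1 array 6 was 5.752, below 5.872. RAB43 on NC1 array 6 was 4.225, above 3.93. RAB9B on NC1 array 1 was 5.269, above 4.988. None of these 7 was called by limma in a comparison of a treated group with all NC1 arrays.

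The effects of mimic and siRNA, each taken from the NC1 part listed with it, differed for RAB27B by 0.736 (limma adjusted p = 0.0224) and for RAB4A by −0.684 (adjusted p = 0.0113). In direct comparison of mimic with siRNA, RAB4A was called and RAB27B was not.

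A probe set that carries the symbols RAB6A, RAB6C and RAB6D, left out of the members, read 0.523 higher with the mimic than on NC1 1 to 3 (adjusted p = 0.0224 over 33297 probe sets). Against NC1 4 to 6 it read 0.21 higher (adjusted p = 0.662). A second probe set with the same 3 symbols read 0.278 higher with the mimic than on NC1 1 to 3 (adjusted p = 0.0838).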

How the results depend on the processing

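Over the 46 member differences tested under the alternatives, 671 alternative values kept direction and call, 108 lost the call, 1 gained it and 6 changed sign. The 46 include uncalled differences of RABs of CFTR traffic, which had no call to lose. The 671 therefore also count values that were uncalled before and after, and their share does not measure how stable the calls were. The sign changes concern the uncalled siRNA differences of RAB11B (0.010 without NC1 replicate 3, 0.055 without siRNA replicate 3, with a lowest leave-one-out value of −0.112) and RAB27A (0.054 with the array set as block and with the replicate block, 0.024 without NC1 replicate 1, 0.015 without NC1 replicate 5, with a lowest leave-one-out value of −0.138). With 1 array left out at a time, the members called ranged from 0 to 4 for siRNA against all NC1 arrays (2 with all arrays), 0 to 2 for the mimic (1), 0 to 5 for mimic against siRNA (3), 3 to 8 between the NC1 parts (5), 4 to 9 and 2 to 7 for siRNA against NC1 1 to 3 and 4 to 6 (5 and 6), and 5 to 12 and 0 to 3 for the mimic (9 and 2). The array set as block gives the same fit as the 4 means. Its 5 members called for siRNA and 2 for the mimic are those called against NC1 1 to 3 and against NC1 4 to 6. With the replicate number as block NC1 4 to 6 have no partner, so each treatment was in effect compared with NC1 1 to 3 only. In that fit 4 members were called for siRNA, 8 for the mimic and 6 for mimic against siRNA. In that fit the siRNA difference of RAB5B (0.395, adjusted p = 0.061) and the mimic difference of RAB9A (0.341, adjusted p = 0.0743) were not called. Deviations of same-numbered replicates from their group means correlated at −0.100 to 0.029, and not every array correlated best with its own number. The numbers were therefore not taken to pair the arrays. That range leaves out NC1 4 to 6, which share no number with NC1 1 to 3. Between these parts the deviations correlated at 0.439 for NC1 arrays 3 and 6 and 0.311 for arrays 1 and 4. The values were 0.063 for arrays 2 and 5 and −0.41 for arrays 1 and 6. A second quantile normalization and a variance trend each left 0 members for the mimic, where RAB9A had adjusted p of 0.072 and 0.058 and 13 of 60 members, and 11.3% of all genes, an unadjusted p under 0.05 in the limma fit to the deposited values. Leaving out dim genes before the fit gave 10 members for siRNA against NC1 1 to 3, where fewer genes were tested. The causes of the other shifts were not tested. Apart from the array set as block, the share of all genes called under an alternative was not counted. The member counts under the alternatives therefore have no background beside them. RAB27B with siRNA was called under each alternative that kept all arrays. The number of arrays, 3 in each treated group, limits what could be called.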
